A study of Mus musculus with 14 samples.

Results

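The genes described here are 8 members of the IL-6 cytokine family and its receptors in mouse liver, chosen by symbol among the 17656 genes listed for each library. They comprise the ligand genes Il6, Osm and Lif and the receptor chain genes Il6st, Osmr, Il6ra, Lifr and Il11ra1, and all 8 were found once in every table. The 14 libraries, taken here as 1 per mouse, came from livers of mice on the C57BL/6 background at 8 weeks of age. WT mice and mice without Ythdf1 in the whole body (genotype Ythdf1-/-, made with CRISPR/Cas9 and called KO here) were given concanavalin A (ConA, 8 mg/kg) or saline into a vein, and tissue was taken 8 h later. There were 3 WT and 3 KO livers with saline and 4 WT and 4 KO livers with ConA, and they were sequenced as bulk tissue. Ythdf1 encodes a reader of the m6A mark on RNA, and ConA is a plant lectin that activates T cells and causes acute hepatitis in mice.

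Cytokines of the IL-6 family act through receptor complexes that share the chain gp130, encoded by Il6st. A partner chain sets which ligand is bound: Il6ra binds IL-6, Il11ra1 binds IL-11, Lifr binds leukemia inhibitory factor (Lif), and Osmr binds oncostatin M (Osm). The complexes activate JAK kinases and STAT3, and in hepatocytes this pathway is the classical inducer of acute-phase proteins. Socs3 is the main feedback inhibitor at gp130.

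On the RefSeq annotation of GRCm38.p6 the ligand genes Osm (gene ID 18413, chr11:4236785-4241026) and Lif (16878, chr11:4257568-4272514) are neighbours with 16541 bases between them, and Il6 (16193) lies at chr5:30013114-30019975. The receptor genes Osmr (18414, chr15:6813568-6874968) and Lifr (16880, chr15:7090610-7197489) also share a chromosome, with 215641 bases between them. Il6st (16195) lies at chr13:112464070-112506860, Il6ra (16194) at chr3:89869324-89913196 and Il11ra1 (16157) at chr4:41760443-41769473. The table of RefSeq promoters held 9 windows of 300 bases for 7 of the 8 members. The STAT motif TTCNNNGAA, which reads the same on both strands, was in 0 of the 9 windows, against 8.3% of all 32851 promoters. The C/EBP motif TTGCNNAA, read on both strands, was in the Il6 window alone, against 10.8% of all promoters. No match says only that these letters are not in this window. The 250 bases before the start of Il6 (chr5:30012864-30013113, plus strand) are shown because they hold this match, in capitals, which begins at position -128 from the start site.
Il6: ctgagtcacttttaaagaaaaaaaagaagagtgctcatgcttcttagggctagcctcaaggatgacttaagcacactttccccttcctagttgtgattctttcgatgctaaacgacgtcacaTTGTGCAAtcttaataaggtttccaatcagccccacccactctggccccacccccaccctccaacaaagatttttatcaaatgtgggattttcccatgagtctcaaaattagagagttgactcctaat
Upstream bases of Il6st (chr13:112463820-112464069, plus strand) and of the Lifr start at chr15:7129322-7129571 (plus strand, a start inside the gene, with 13 of the 250 bases in an annotated Lifr exon) are shown because their genes moved in opposite directions after ConA in WT. Here capitals mark each CG.
Il6st: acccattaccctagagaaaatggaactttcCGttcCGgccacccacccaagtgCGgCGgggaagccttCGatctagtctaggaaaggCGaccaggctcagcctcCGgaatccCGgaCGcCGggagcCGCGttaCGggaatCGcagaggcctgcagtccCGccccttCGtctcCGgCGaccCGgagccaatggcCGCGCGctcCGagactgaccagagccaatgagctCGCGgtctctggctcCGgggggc
Lifr: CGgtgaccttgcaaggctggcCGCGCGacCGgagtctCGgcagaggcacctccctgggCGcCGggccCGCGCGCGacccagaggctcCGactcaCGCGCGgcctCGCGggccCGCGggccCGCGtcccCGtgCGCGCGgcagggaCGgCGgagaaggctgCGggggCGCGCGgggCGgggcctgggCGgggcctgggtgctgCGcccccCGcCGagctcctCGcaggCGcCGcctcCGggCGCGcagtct
The 250 bases of Il6 had a GC content of 42.8% with 3 CG, those of Il6st 66.0% with 26 CG and those of Lifr 82.4% with 43 CG, against a median GC content of 52.4% over all promoters. The other Lifr start in the table had 50.8% and 3 CG.

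The values are TPM, which is per transcript length and per 1000000 transcripts, so levels of different genes can be set side by side within a library. The depth behind them is unknown, so errors are those between libraries of a group. The whole-gene value of Ythdf1 (12.0 to 13.9 TPM with saline and 18.7 to 25.6 with ConA in WT, 18.4 to 20.8 and 15.5 to 26.2 in KO) was not lower in KO livers. With saline it was higher in each KO liver than in each WT liver. A value over the whole gene does not test a deletion of part of it, so in these libraries the genotypes rest on the labels. KO means the libraries labelled so. The paper shows genotyping of tail samples for the knockout line. WT saline replicates 2 and 3 were closer than any other replicates, with a median absolute log2 difference of 0.120 over the 100 genes that varied most in KO saline, against 0.268 to 1.80 in the other 17 pairs. The pairs of KO saline, from which these genes were chosen, had 1.24 to 1.80. Over all genes with TPM of 1 or more in at least 3 libraries the difference was 0.0793, against 0.128 to 0.397 in the other 17 pairs. The values cannot show whether WT saline replicates 2 and 3 came from separate mice. If they did not, the errors and p values of comparisons with WT saline are too small. WT ConA replicate 3 and KO ConA replicate 3 stood apart from their groups, with median log2 differences of -0.28 and -0.25 from the other libraries.

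Il6, Osm and Lif mRNA were scarce in saline livers and higher after ConA in both genotypes, but stayed at low levels. Il6 was listed at 0 in the 3 WT saline livers and had 0.15, 0 and 0 TPM in KO saline. After ConA it had 0.21, 0.07, 0.07 and 0.21 TPM in WT and 0.15, 0.23, 0.59 and 0.45 TPM in KO. Every ConA liver therefore had signal for Il6, although KO ConA overlapped KO saline through the value of 0.15 in each. Osm, a cytokine made by activated leukocytes, had 0, 0 and 0.04 TPM in WT saline and 0 in each KO saline liver. It reached 0.96, 0.92, 0.30 and 0.59 TPM in WT ConA and 1.07, 0.91, 1.77 and 0.71 TPM in KO ConA. Osm was thus the most abundant of the 3 ligand mRNAs by group mean in either ConA group, with 0.693 ± 0.310 (SD, n = 4) in WT and 1.12 ± 0.461 (SD, n = 4) in KO. Lif had 0.03, 0.02 and 0 TPM in WT saline and 0, 0.02 and 0 in KO saline. After ConA it had 0.73, 0.31, 0.21 and 0.25 TPM in WT and 0.70, 0.69, 1.61 and 0.94 TPM in KO. For Osm and Lif no ConA liver overlapped a saline liver of its genotype.

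The filter on low values (TPM of at least 1 in a number of libraries no lower than the size of the smaller group) removed the 3 ligands from every comparison, so they were not tested there. With no filter, limma on log2(TPM + 1) gave differences after ConA of 0.19 for Il6 (adjusted p = 0.0273), 0.72 for Osm (0.00475) and 0.42 for Lif (0.0239) in WT. In KO livers they were 0.36 (0.0309), 1.06 (5.79e-04) and 0.96 (8.99e-04). On this scale the change of genes at such low levels is understated. Between KO ConA and WT ConA the unfiltered differences were 0.24 for Il6 (adjusted p = 0.342), 0.32 for Osm (0.494) and 0.52 for Lif (0.223), and the groups overlapped for each.

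**Figure D1:**
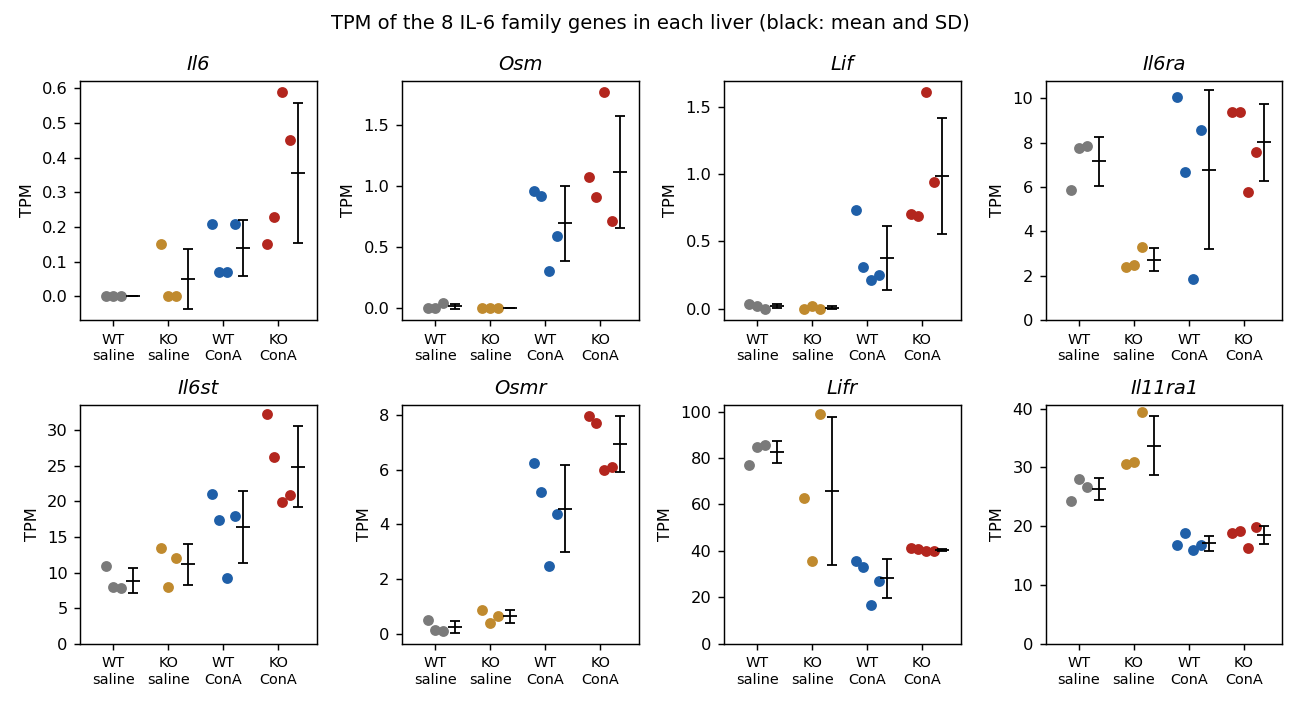
TPM (vertical axes, each from about 0 and scaled per gene) of the 8 genes in each liver, by group, with 1 point per library and the mean and SD in black. The ligands are near 0 in saline livers, Osmr and Il6st are higher after ConA, and Lifr and Il11ra1 are lower, with Lifr of KO saline spread from 35.6 to 98.8 TPM.

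Among the receptor chains, Osmr showed the largest rise and Il6st a smaller one. Osmr had 0.49, 0.15 and 0.10 TPM in WT saline and 6.25, 5.17, 2.49 and 4.38 TPM in WT ConA. In KO it had 0.86, 0.41 and 0.64 TPM with saline and 7.95, 7.72, 5.98 and 6.11 TPM with ConA. All 8 ConA livers lay above all 6 saline livers. On the log2(TPM + 1) scale the rise was 2.12 ± 0.24 (SE) in WT (adjusted p = 9.50e-05) and 2.28 ± 0.17 (SE) in KO (1.01e-06). The ratio of mean TPM was 18.5 in WT and 10.9 in KO. Osmr reached a TPM of 1 in ConA livers alone, so it entered the test through the group where it was high.

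Il6st had 10.92, 7.91 and 7.78 TPM in WT saline and 21.00, 17.34, 9.22 and 17.93 TPM in WT ConA, where replicate 3 lay within the saline range. In KO it had 13.48, 7.94 and 12.10 TPM with saline and 32.30, 26.19, 19.95 and 20.93 TPM with ConA, without overlap. The rise was 0.77 ± 0.26 (SE) in WT (adjusted p = 0.0302) and 1.09 ± 0.21 (SE) in KO (8.82e-04). The WT call was not firm. It was lost with WT saline replicates 2 and 3 averaged (0.103), with no filter (0.0563), and without WT saline replicate 2 (0.101) or 3 (0.104) or WT ConA replicate 1 (0.0772), 2 (0.0699) or 4 (0.0688). The KO call held without each library in turn, with adjusted p values up to 0.00463.

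Lifr and Il11ra1 went the other way. Lifr, the most abundant of the 5 chains in every group, had 76.93, 84.63 and 85.61 TPM in WT saline and 35.70, 33.03, 16.82 and 27.11 TPM in WT ConA, a ratio of means of 0.342. It fell by 1.57 ± 0.23 (SE) on the log2 scale in WT (adjusted p = 4.29e-04) with no overlap. In KO it had 62.79, 35.59 and 98.84 TPM with saline and 41.10, 40.65, 39.86 and 40.02 TPM with ConA. KO saline replicate 2 lay below every KO ConA liver, and the difference of -0.57 (95% interval -1.15 to 0.0052) was not called (adjusted p = 0.0756). Without KO saline replicate 2 it was -0.95 and called (0.00126), and with a replicate block it was also called (0.0267).

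Il11ra1 had 24.33, 28.00 and 26.58 TPM in WT saline and 16.77, 18.76, 15.95 and 16.72 TPM in WT ConA. In KO it had 30.60, 30.96 and 39.47 TPM with saline and 18.75, 19.09, 16.33 and 19.78 TPM with ConA. Saline and ConA livers did not overlap in either genotype. It fell by 0.60 ± 0.12 (SE) in WT (adjusted p = 0.00308) and by 0.83 ± 0.14 (SE) in KO (3.35e-04). Only 53.5% of the 50-base stretches of its longest coding transcript are found in no other gene, the rest being shared with Il11ra2 and Gm13305, so reads of this length may have been split between them, and the level of Il11ra1 is uncertain. Il11ra2 itself had at most 0.22 TPM in any library, but 0% of its own stretches are found in no other gene, so that value is uncertain too. For the 7 other members 100% of such stretches were unique.

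Il6ra, the chain that binds IL-6, was lower in KO than in WT livers with saline and rose after ConA in KO. It had 5.88, 7.76 and 7.83 TPM in WT saline and 10.04, 6.69, 1.84 and 8.55 TPM in WT ConA. In KO it had 2.40, 2.48 and 3.30 TPM with saline and 9.38, 9.36, 5.75 and 7.58 TPM with ConA. The KO saline livers were below every WT saline and every KO ConA liver. In KO the rise after ConA was 1.26 ± 0.19 (SE, adjusted p = 1.75e-04), while in WT the difference of -0.23 ± 0.41 (SE) was not called (0.672) and turned to 0.20 (0.303) without WT ConA replicate 3. Between KO saline and WT saline Il6ra was lower by a log2 difference of -1.13 ± 0.14 (SE, adjusted p = 0.00891). That call was lost with WT saline replicates 2 and 3 averaged (-1.07, adjusted p = 0.0662), without replicate 2 (0.0585) or 3 (0.0677) of WT saline, and with all 14 libraries in the fit (0.118). An exon of the antisense gene Gm42809 overlaps Il6ra, and an exon of Ccl27a on the other strand overlaps Il11ra1. Whether counting used strand is not given in the sources used here.

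The counts of members called can be read against all genes tested. In WT ConA against WT saline, 5 members were tested and 2 were called higher and 2 lower, where 22% of the 10768 genes were called higher and 31% lower. In KO ConA against KO saline, 3 of 5 were higher and 1 was lower, beside 33.9% and 30.7% of 10988 genes. Of the 5 tested members, the TPM of the groups did not overlap for 3 in WT and 4 in KO, beside 58% and 64.3% of all tested genes. Of the 3 ligands, which were not tested, this held for 3 in WT and for Osm and Lif in KO. Most genes tested were called after ConA, so a call alone sets no member apart. In WT 2368 genes were called higher and 3336 lower, and 2938 and 3105 in rescaled libraries. In KO these counts were 3723 and 3376, and 3947 and 3708. In KO saline against WT saline, Il6ra was the 1 call among 4 tested members, lower, where 6.3% of 10459 genes were called higher and 12.9% lower. Over all genes there, 659 were called higher and 1350 lower, and 837 and 786 in rescaled libraries. The groups did not overlap for Il6ra and Il11ra1, against 42.3% of genes. Il11ra1 was higher in each KO saline liver, with a log2 difference of 0.34 that was not called (adjusted p = 0.0811) but passed in rescaled libraries (0.42, 0.0412). Il6st (0.29, 0.318) and Lifr (-0.44, 0.337) were not called, and Osmr was not tested there. Without KO saline replicate 3 Lifr was called lower (-0.79, 0.0487).

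**Figure D2:**
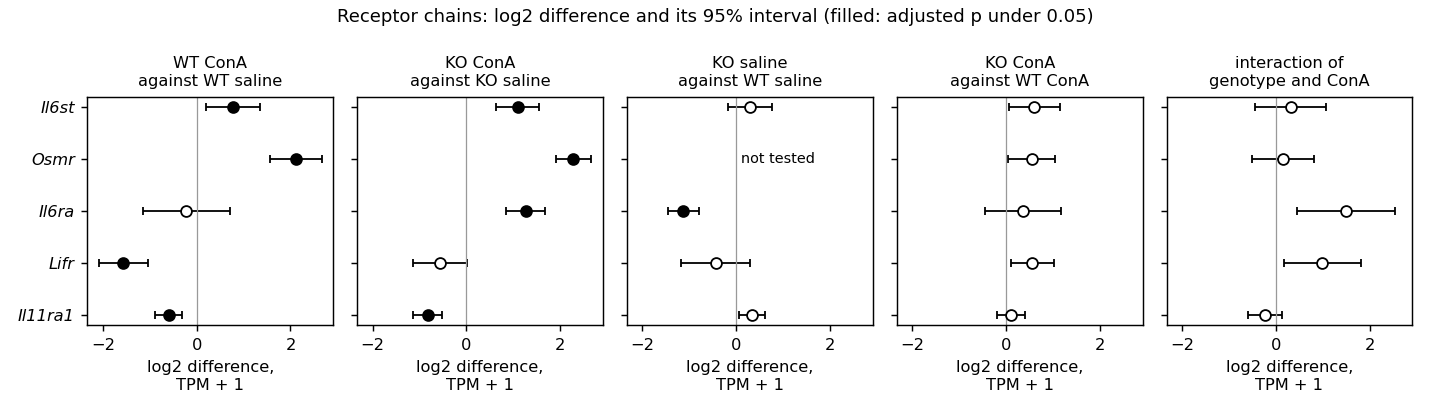
Log2 difference of TPM + 1 (horizontal axis) with its 95% interval for the 5 receptor chains in the 4 comparisons and the interaction. Filled points have an adjusted p under 0.05. Osmr and Il6st are to the right of 0 and Il11ra1 to the left after ConA in both genotypes, and no point is filled in KO ConA against WT ConA or in the interaction.

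After ConA the genotypes did not differ for any member past the threshold. In KO ConA against WT ConA, 0 of 5 tested members were called by limma, beside 0.342% of 10519 genes called higher and 0.0856% lower, and the unadjusted p of 1753 genes was under 0.05. Over all genes 36 were called higher and 9 lower, and 13 and 14 in rescaled libraries. The log2 differences were 0.60 for Il6st (95% interval 0.065 to 1.14, adjusted p = 0.248), 0.55 for Osmr (0.051 to 1.05, 0.253) and 0.56 for Lifr (0.10 to 1.01, 0.210). These 3 had unadjusted p values of 0.0314, 0.0336 and 0.0208. Il11ra1 differed by 0.11 (-0.18 to 0.40, 0.732). Il6ra differed by 0.36 (-0.46 to 1.18, 0.681), which became -0.070 (0.925) without WT ConA replicate 3. Lifr was the member whose groups did not overlap, since the 4 KO livers lay between 39.86 and 41.10 TPM and the highest WT liver at 35.70 TPM. Non-overlap was found for 10.5% of tested genes. Without WT ConA replicate 3 the differences of Il6st, Osmr and Lifr were 0.37 (0.409), 0.34 (0.429) and 0.34 (0.278). With both replicates numbered 3 of the ConA groups left out, they were 0.46 (0.233), 0.40 (0.261) and 0.34 (0.224).

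The interaction compares the response to ConA of KO livers with that of WT livers. None of the 5 tested members passed, beside 2.64% of 11327 genes called higher and 2.14% lower, with 2862 genes at an unadjusted p under 0.05. Il6ra had the largest term, 1.49 ± 0.49 (SE, 95% interval 0.44 to 2.53, adjusted p = 0.0848). It was called without WT ConA replicate 1 (1.71, 0.0484) or replicate 3 (1.06, 0.0393), and with both ConA replicates numbered 3 left out (1.19, 0.0102). Lifr had 0.99 (0.17 to 1.82, 0.131), and without KO saline replicate 3 it was called (1.34, 0.0422). Il6st (0.32, -0.45 to 1.08, 0.593) and Il11ra1 (-0.23, -0.60 to 0.14, 0.416) were not called. For Osmr the term was 0.15 (-0.50 to 0.81, 0.773), and its sign turned with a pseudocount of 0.1 (-0.55, 0.531).

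The make-up of the partner chains differed between saline and ConA livers. Because TPM is per length, the levels of Il6ra, Osmr, Lifr and Il11ra1 can be summed in each library. In WT the sum was 107.6 to 120.5 TPM with saline and 37.1 to 68.8 with ConA, and in KO it was 69.4 to 142.3 and 67.9 to 77.2. Osmr made up 0.083 to 0.455% of it in WT saline and 0.450 to 0.890% in KO saline, and 6.71 to 9.09% and 8.31 to 10.3% after ConA. Lifr made up 70.2 to 71.5% in WT saline and 51.3 to 69.5% in KO saline, and 45.3 to 51.9% and 52.9 to 58.7% after ConA. The TPM of Lifr was 157 to 856 times that of Osmr in WT saline and 73.0 to 154 times in KO saline, and 5.71 to 6.76 and 5.17 to 6.67 times after ConA. Set against the shared chain, the summed partner chains were 9.86 to 15.4 times Il6st with saline and 3.17 to 4.02 times with ConA in WT, and 7.17 to 11.8 and 2.39 to 3.51 times in KO. The ratio of Osmr to Il6st after ConA was 0.244 to 0.298 in WT and 0.246 to 0.300 in KO, so it lay in nearly the same range in both genotypes, and WT ConA replicate 3 did not stand apart in it. These are ratios of mRNA and were not tested.

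**Figure D3:**
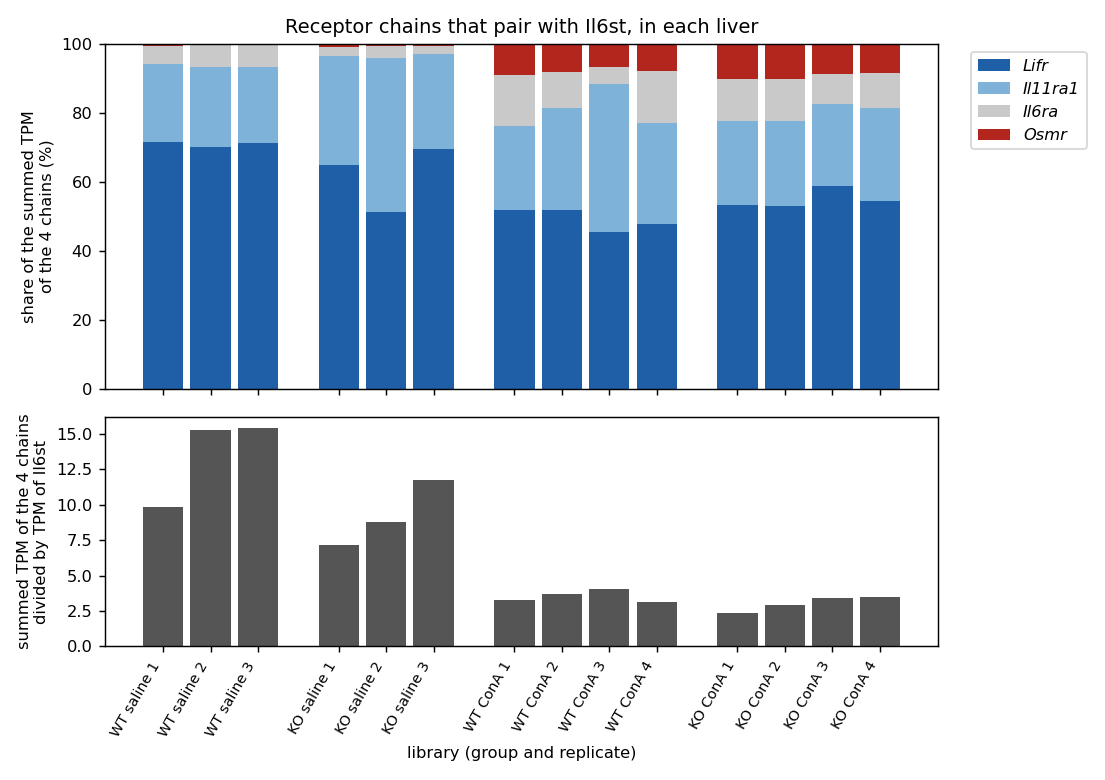
Upper panel, share in percent of each chain in the summed TPM of Lifr, Il11ra1, Il6ra and Osmr in each library. Lower panel, that sum divided by the TPM of Il6st. Osmr is a thin band of at most 0.890% in saline livers and of 6.71 to 10.3% after ConA, and the lower bars shrink from 7.17 or more to 4.02 or less.

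By group mean the order of levels was the same with saline and with ConA in WT. In KO only Il6st and Il11ra1 changed places. In WT saline the means were 82.4 ± 4.75 (SD, n = 3) for Lifr, 26.3 ± 1.85 for Il11ra1, 8.87 ± 1.78 for Il6st, 7.16 ± 1.11 for Il6ra and 0.247 ± 0.212 TPM for Osmr, with Il6st and Il6ra within their spread of each other. In WT ConA they were 28.2 ± 8.37 (SD, n = 4), 17.1 ± 1.20, 16.4 ± 5.03, 6.78 ± 3.57 and 4.57 ± 1.59 TPM, and the ranges of Il11ra1 and Il6st overlapped, as did those of Il6ra and Osmr. In KO saline they were 65.7 ± 31.7 (SD, n = 3) for Lifr, 33.7 ± 5.02 for Il11ra1, 11.2 ± 2.88 for Il6st, 2.73 ± 0.498 for Il6ra and 0.637 ± 0.225 TPM for Osmr. In KO ConA Il6st, at 24.8 ± 5.68 TPM (SD, n = 4), stood above Il11ra1, at 18.5 ± 1.50, and their ranges did not overlap, while Lifr had 40.4 ± 0.574, Il6ra 8.02 ± 1.73 and Osmr 6.94 ± 1.04 TPM. The lowest Il6st value there was 19.95 TPM and the highest of Il11ra1 19.78 TPM.

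The other genes of the pathway were described by lists. Of 8 other IL-6 family ligands, 7 were in the tables and 2 were tested in WT ConA against WT saline. Ctf1, which encodes cardiotrophin 1, a ligand of the Lifr complex, had 2.90 to 4.10 TPM in WT livers with saline and 0.29 to 1.35 TPM with ConA. It fell by 1.26 on the log2 scale in WT (adjusted p = 9.41e-04) and by 1.32 in KO (2.25e-05). In KO ConA it had 0.43 to 0.90 TPM, so there it entered the test through the saline livers alone, where it was high. In WT the ConA livers alone would not have passed it either. Cntf, the gene of ciliary neurotrophic factor, was not called in WT (-0.12, 0.548) or KO (0.14, 0.392). Of 4 other receptor chains none was tested in WT. Cntfr, named after its values were seen, was called in KO, where it fell by 1.05 after ConA (0.00168). It had 0.41 to 1.42 TPM in KO ConA, and without the KO saline livers it would not have entered that test. It had 3.41, 1.77 and 2.57 TPM in KO saline against 0.43 to 0.90 TPM in WT saline, and was called higher there (1.15, 0.0173), having entered the test through the KO saline livers alone. That call was lost with WT saline replicates 2 and 3 averaged (0.0845). The interaction also called Cntfr (-1.15, adjusted p = 0.0388), but not with that average. Without the KO saline livers it would not have entered that test.

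Of 4 genes needed to shed cytokine receptors from the cell surface, 2 rose after ConA in WT and 4 in KO. Rhbdf2, a partner of the protease Adam17, rose by 2.34 ± 0.15 (SE) in WT (adjusted p = 3.08e-06) and 2.45 in KO (1.40e-07), and Rhbdf1 by 0.84 (0.00603) and 0.96 (3.23e-04). Adam10 and Adam17 were called in KO (0.94 and 0.99) but not in WT (0.12 and 0.43), where all 4 genes were called without WT ConA replicate 3. Neither had a called interaction (0.82, adjusted p = 0.198, and 0.56, 0.294), and Adam17 was named after its values were seen. Of 12 kinases, STATs and adaptors, 3 rose and 3 fell in WT, and 8 rose and 1 fell in KO. Beside these stand the 22% of all genes called higher and 31% lower in WT, and 33.9% and 30.7% in KO. Without WT ConA replicate 3 the WT counts were 8 and 3. Stat3, the main transcription factor of the pathway, had 24.31 to 25.19 TPM with saline and 66.38 to 108.0 TPM with ConA in WT, and 16.16 to 18.67 and 111.3 to 129.7 TPM in KO. It rose by 1.81 ± 0.17 (SE) in WT (2.67e-05) and 2.70 ± 0.11 (SE) in KO (1.94e-08). The interaction called Stat3 (0.89 ± 0.20 SE, adjusted p = 0.0314), but not with WT saline replicates 2 and 3 averaged (0.1004). Of 7 feedback genes, 4 rose and 1 fell in each genotype. Socs1 rose by 6.05 in WT (3.97e-07) and 5.90 in KO (3.89e-09), and Socs3 by 3.31 (4.38e-06) and 4.38 (1.96e-07). Socs1 was below 1 TPM in every saline liver and entered the test through the ConA livers. Among the feedback genes the interaction called Ptpn2 (1.18 ± 0.28 SE, adjusted p = 0.0355), and none with WT saline replicates 2 and 3 averaged. Of all genes tested, the median log2 difference was -0.072 in WT and 0.069 in KO, and it was 0.63 and 0.98 for the shedding genes, 0.38 and 0.69 for the kinases, STATs and adaptors, and 1.04 and 1.47 for the feedback genes.

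Of 27 target genes of the family in liver, 27 rose after ConA in WT (median log2 difference 2.63) and 26 in KO (2.84). Beside them, 22% of all genes tested were called higher in WT and 33.9% in KO. Of the target genes, Timp1 was below 1 TPM in every saline liver and entered the test through the ConA livers. Saa2, an acute-phase serum amyloid, had 100.6 to 153.7 TPM in WT livers with saline and 42234 to 49917 TPM with ConA (8.60 ± 0.16 SE, adjusted p = 8.69e-09), and Lcn2, which encodes the iron-binding protein lipocalin 2, rose by 7.78 ± 0.18 SE (2.88e-08). Hamp, the hepcidin gene, named after its values were seen, was the gene not called in KO (0.76, 0.0919). These counts did not change with WT saline replicates 2 and 3 averaged or without replicate 3 of the ConA group. Many of these genes also respond to other cytokines. In KO saline against WT saline 12 of 26 tested target genes were lower and 2 higher, beside 12.9% and 6.3% of all genes, and with WT saline replicates 2 and 3 averaged 1 was lower and 0 higher. In the interaction 9 of 27 were called higher, beside 2.64% of all genes, and 1 with that average. Saa2 was lower in KO saline (-1.06, 0.0231, and 0.0871 averaged) and had an interaction of 1.12 (0.0280, and 0.0758 averaged).

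In KO ConA against WT ConA none of these lists held a call, with 0 of 4 shedding genes, 0 of 12 kinases, STATs and adaptors, 0 of 7 feedback genes and 0 of 27 target genes by limma. The smallest p values were those of Rhbdf1 (log2 difference 0.39, adjusted p = 0.349) and Adam10 (0.51, 0.434), Jak2 (0.65, 0.163) and Stat3 (0.42, 0.213), Ptpn2 (0.78, 0.116) and Socs3 (0.65, 0.274), and Timp1 (1.10, 0.0811) and Il1rn (0.96, 0.118). For Timp1, an inhibitor of metalloproteases, WT ConA had 12.12 to 18.89 TPM and KO ConA 22.24 to 60.55 TPM, without overlap. Jak2 and Stat3 did not overlap either. Of the other target genes, Fga, Fgb, Fgg, Itih3, Itih4 and Serpina3n were higher in KO ConA without overlap, and Lbp was lower. Non-overlap was found for 10.5% of all tested genes. Without WT ConA replicate 3 the difference of Adam10 was 0.21 (0.744) and that of Stat3 0.27 (0.322). Cntf was the tested ligand outside the members (0.10, 0.814).

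**Figure D4:**
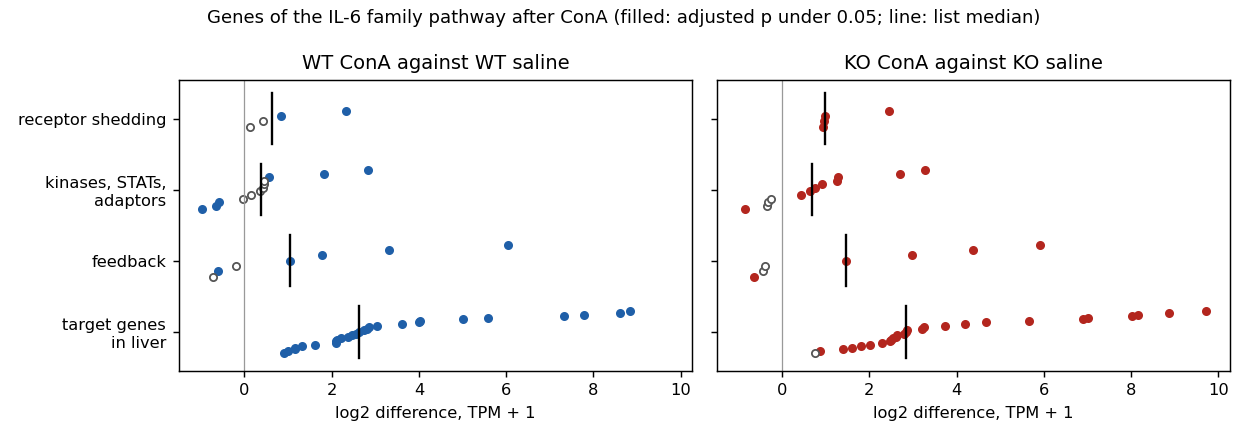
Log2 difference of TPM + 1 after ConA (horizontal axis) for each gene of 4 pathway lists, in WT and in KO, with filled points at an adjusted p under 0.05 and a line at the list median. The target genes lie to the right of 0 in both panels, with medians of 2.63 and 2.84, while the other lists hold genes on both sides, apart from the shedding genes.

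The summed TPM of cell type markers moved as well. In bulk tissue fewer cells of a type, less RNA per cell and a larger share of other transcripts cannot be told apart. TPM is a share of each library, and Saa2 alone reached 42234 to 49917 TPM in WT ConA. The 10 neutrophil markers summed to 9.57 to 11.2 TPM with saline and 331 to 578 with ConA in WT, and to 5.60 to 11.4 and 424 to 979 in KO, beside the higher ligands and Osmr. S100a8 and S100a9 made up most of each sum with ConA. After ConA 9 of the 10 were called higher in each genotype, but 5 of the 10 (Retnlg, Mmp8, Mmp9, Il1r2 and Clec4d) were below 1 TPM in every saline liver and entered the test through the ConA livers. The other marker, Ly6g, was lower but not called (-1.15, adjusted p = 0.0631, in WT and -0.21, 0.370, in KO). Of all genes tested, 22% were called higher and 31% lower in WT, and 33.9% and 30.7% in KO. Il1r2 was at 0 in all WT saline livers, and no other listed marker was at 0 throughout a group. In the same order the 8 monocyte and macrophage markers summed to 42.6 to 67.9, 52.8 to 100.5, 28.7 to 55.6 and 51.0 to 159.1 TPM, and the 8 T cell markers to 1.26 to 2.28, 2.30 to 4.80, 2.96 to 3.73 and 3.28 to 6.67 TPM. In each genotype 4 of the 7 tested monocyte and macrophage markers were called higher after ConA and 1, Csf1r, lower. Of those higher, Ly6c2, Chil3 and Itgam were below 1 TPM in every saline liver and entered the test through the ConA livers. No T cell marker was called, and only 1 was tested, in KO. The 8 hepatocyte markers, which mark the labelled tissue, summed to 117278 to 135666 and 59785 to 82202 TPM in WT and 109228 to 127430 and 53865 to 65694 TPM in KO, beside the lower Lifr and Il11ra1. Of these 8, 6 were called lower and 1, Tat, higher in each genotype, and Hnf4a was not called. Alb was the largest part of every hepatocyte sum. The 8 Kupffer cell markers summed to 67.5 to 129.1 and 9.50 to 35.7 TPM in WT, where 6 were called lower, and to 27.8 to 63.8 and 5.98 to 23.8 TPM in KO, where 3 were. The 10 stellate cell and fibroblast markers summed to 18.5 to 74.9, 25.3 to 73.0, 67.2 to 115.6 and 57.2 to 115.0 TPM, the 8 sinusoidal endothelial markers to 23.4 to 32.1, 17.0 to 37.8, 37.9 to 63.9 and 19.7 to 39.0, and the 5 cholangiocyte markers to 46.5 to 57.0, 18.7 to 32.1, 83.7 to 89.4 and 36.8 to 56.4. Dcn was the largest part of every stellate sum. After ConA 0 of 3 tested stellate markers were called in WT, and 5 of 9 were lower and 0 higher in KO. Of the endothelial markers 3 of 7 were lower in WT and 5 of 8 in KO, and 1, Lyve1, was higher in each. Lyve1 entered the WT test through the ConA livers. Lrat, Oit3, Kdr and Ptprb would not have entered theirs without the saline livers. After ConA 3 of these 5 cholangiocyte markers were called higher in WT and 1, Spp1, lower. In KO 1 was called higher and 1, again Spp1, lower. Spp1 was the largest part of every sum. Sox9, called higher in both genotypes, was below 1 TPM in every saline liver and entered the test through the ConA livers. Every KO liver had a higher cholangiocyte sum than the WT livers of the same treatment. The part of any of these cells in the members' values was not tested.

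The genes most like each receptor chain were found by the root mean square difference of z-scores over the 14 libraries among 11327 genes. For Osmr they were Slc30a10 (0.125), Prkx (0.141) and Adamts1 (0.147), all with their highest mean in KO ConA. For Il6st they were Stk17b (0.204), Tanc1 (0.234) and Msn (0.256). Osmr ranked 131st for Il6st and Il6st 1138th for Osmr, with a difference of 0.403. Lifr was most like Smpdl3a (0.300) and Mccc1 (0.316), and Il11ra1 most like Alas1 (0.226), Anxa13 (0.254) and 5730409E04Rik (0.263). Il6ra, which was low in KO saline and in WT ConA replicate 3, was most like Wdr36 (0.257), Erap1 (0.293) and Ncl (0.299). These values describe likeness across the same libraries and carry no test.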

How the data were processed

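RNA of 14 liver samples was sequenced on a BGISEQ-500 (50 bases, single end), and the authors deposited 1 table of TPM per library (17656 genes, summing to about 1000000). The submitters' processing notes name Bowtie2, RSEM 1.3.1 and GRCm38.p6, whereas the methods of the paper name STAR and HTSeq, so the route to TPM is uncertain. Groups came from the labels. The members and lists were chosen with earlier results of these data known. Differences were tested with limma 3.58.1 (eBayes with trend, R 4.3.3) on log2(TPM + 1) for genes that passed a TPM of 1 in a number of libraries no lower than the size of the smaller group, two-sided, with Benjamini-Hochberg adjustment over all genes tested and a threshold of 0.05. The interaction used all 14 libraries. Named beside the members were, of each pathway list, the 2 genes with the smallest p in WT ConA against WT saline and the 2 in KO ConA against WT ConA, and the 3 genes most like each receptor chain, unless stated. Some genes that this rule names are not reported here. The settings varied were the pseudocount (0.1), the filter (TPM of 5 or none), scaling by median ratio, robust eBayes, a replicate block, all 14 libraries, 2 WT saline libraries averaged and each library left out. The procedure was tested on simulated data. Promoters are from RefSeq, and 50-base stretches and exons from GENCODE vM21. Python 3.11.15, pandas 2.3.3 and matplotlib 3.10.9 were used.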

Additional observations from a re-analysis of the deposited data

How the results depend on the processing

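The counts of members called kept within 1.5 times in most alternatives. In KO ConA against KO saline the count of 4 was 7 with no filter, which adds the 3 ligands. In KO saline against WT saline the count of 1 was 2 in rescaled libraries, 0 with all 14 libraries in the fit, 0 when replicates 2 and 3 of WT saline were averaged, and 0 to 2 when each library was left out. In the interaction the count of 0 was 0 to 1 when each library was left out and 1 with both ConA replicates numbered 3 left out, a choice made after seeing the data. Signs turned in a few cases, and the cause was not tested: Il6ra ran from -0.45 to 0.20 in WT ConA against WT saline and from -0.070 to 0.58 in KO ConA against WT ConA when each library was left out, and Osmr ran from -0.054 to 0.30 in the interaction and was -0.55 with a pseudocount of 0.1. Whether replicate numbers pair the mice is not known. The deviations of same-numbered libraries correlated at -0.19 to 0.41, highest for WT ConA with KO ConA replicate 3, and 8 of 19 pairs were over 0.1. Differently numbered libraries were not compared, so these values cannot decide it. The replicate block called Lifr in KO ConA against KO saline (-0.57, adjusted p = 0.0267) and changed no other call of a member. Over all genes, the calls in KO saline against WT saline were 659 higher and 1350 lower, 837 and 786 in rescaled libraries, and 49 in all with the averaged pair. In KO ConA against WT ConA they were 36 and 9, and 13 and 14 in rescaled libraries. Rescaling moved the median of all genes in the interaction from 0.14 to 0.028, where the terms of the members were 1.38 for Il6ra, 0.86 for Lifr, 0.19 for Il6st, 0.083 for Osmr and -0.36 for Il11ra1. Depth is unknown, so no counting error or detection limit can be given for the ligands, whose values lie below 2 TPM.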

Other observations

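Other ligands of the family also had low values, and the filter kept them out of the 4 pairwise comparisons with all libraries of the groups. Il11, whose product binds Il11ra1, had 0.13 to 0.34 TPM with saline and 0.51 to 1.13 with ConA in WT, and 0 to 0.30 and 0.76 to 1.85 in KO, so every ConA liver lay above every saline liver. Clcf1, a ligand of the Cntfr complex, had 0.27 to 0.44, 0.51 to 1.35, 0.31 to 0.63 and 0.93 to 1.26 TPM in the same order. Il27 had at most 0.11 TPM in saline livers, and after ConA 0.22 to 0.51 in WT and 0 to 0.53 in KO, and Ebi3, which encodes the other subunit of IL-27, had 0 to 0.33, 0.43 to 1.25, 0.08 to 0.68 and 0.24 to 1.29 TPM. Il31ra did not exceed 0.04 TPM in any library. These genes were picked after their values were seen.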
